A study of Homo sapiens with 2 samples.

Results

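The genes described here build the brush border of the colon's absorptive cells or set the identity of those cells. They are 10 in all, CDX1, CDX2, HNF4A, VIL1, EZR, MYO1A, CDHR2, CDHR5, FABP1 and ANPEP, chosen by gene symbol from the 26255 symbols listed for each library. All 10 were found. The samples were tumours of HT-29, a widely used line of human colon cancer cells, grown under the skin of female NOD SCID mice, a strain whose natural mutation leaves it without T and B cells. Mice were 5 weeks old when obtained. One group ate normal food and the other ate food without methionine, tryptophan and niacin, for 2 weeks, although another sentence of the design text gives the experiment as 3 weeks. Each diet had 1 library, so 2 libraries were compared; the number of mice or tumours behind each one is not stated in the labels or the design text.

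Absorptive cells of the intestine carry on their upper face a carpet of microvilli, the brush border. Each microvillus is a bundle of actin filaments tied to the membrane, and neighbouring microvilli are held together at their tips by cadherins. The homeobox factors CDX1 and CDX2 and the nuclear receptor HNF4A switch on many of the genes that make an epithelial cell intestinal, digestive enzymes and lipid-binding proteins among them. Loss or lowering of CDX2 is common in poorly differentiated colon cancers.

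Values are given as FPKM, in which fragments are divided by transcript length and by sequencing depth. This unit corrects for transcript length, so levels of different genes can be ordered, as far as the transcript models are right. Since each diet was sequenced once, there is no replicate error for any value, no replicate check of any difference, and no p-value. The diet cannot be told apart from any other difference between the 2 libraries.

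Most of these genes had almost the same level in both libraries, and the 2 that differed most, MYO1A and ANPEP, were lower on the depleted diet. The difference is given as a log2 ratio, log2((depleted + 1)/(normal + 1)), where the added 1 FPKM shrinks the differences of low genes. All 10 genes averaged 1 FPKM or more across the libraries, as did 12414 genes in all, which are called measured below. Of the 10, 4 were higher on the depleted diet and 6 lower, against 49.4% higher and 50.6% lower among the 12414 genes. FABP1, which was equal to within 0.01 FPKM in the 2 libraries, moved to the higher side under each of the 2 alternative scalings of the libraries, giving 5 higher and 5 lower. The median log2 ratio of the 10 was -0.03, and that of all 12414 genes was -0.0029, with quartiles of -0.13 and 0.13. No member was 2-fold different in either direction, and 0.894% of all genes were. At a smaller size, a log2 ratio of 0.32 either way (a ratio of 5 to 4, called the smaller size below), 2 of the 10 were past it, both lower, while 14.1% of all genes were past it in either direction and 7.15% were lower by that much. A log2 ratio within 0.1 of 0 was seen in 7 of the 10 and in 40.2% of all genes.

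**Figure D1:**
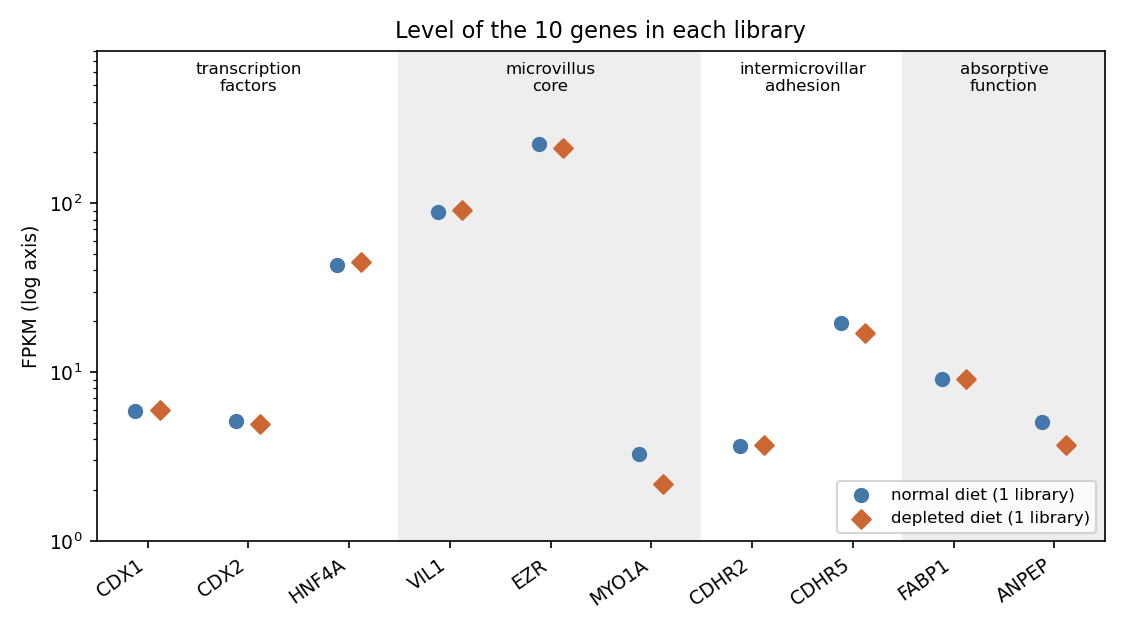
Level of the 10 genes in FPKM on a log axis, ordered by role, with 1 point for each library (circles, normal diet; diamonds, depleted diet). The points of a gene lie side by side except for MYO1A (3.27 and 2.16 FPKM) and ANPEP (5.08 and 3.68 FPKM), where the depleted diet is lower.

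The levels spanned a wide range and kept the same order in both libraries. EZR was highest, followed by VIL1, HNF4A, CDHR5, FABP1, CDX1, CDX2, ANPEP, CDHR2 and MYO1A. The highest level was 68.4 times the lowest on the normal diet and 97.9 times on the depleted diet. EZR alone held 54.9% and 53.8% of the summed FPKM of the 10. Several neighbours in this order were too close to be separated. On the depleted diet ANPEP and CDHR2 were both at 3.68 FPKM, and on the normal diet CDX2 (5.14 FPKM) and ANPEP (5.08 FPKM) were also almost level.

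The promoter stretches of 3 genes are shown because these were the members with the largest differences, MYO1A and ANPEP, and the one with the smallest, FABP1. Each is the 250 bases just before a transcript start in the RefSeq promoter table of build GRCh38.p14, a later build than the hg19 named in the submitters' processing notes. Capitals mark matches on either strand to TTTAT and the longer TTTATG that contains it, which are letters of the sites CDX factors bind, and to CAAAG, letters of an HNF4A site. For MYO1A the upstream of 2 listed starts is shown, at chr12:57051199-57051448, with no value in the files to choose between them, and for FABP1 the start at chr2:88128063-88128312. For ANPEP the downstream of 2 listed starts is shown, at chr15:89806629-89806878, since this gene is known to start there in epithelial cells and further upstream in myeloid cells. All 3 genes lie on the minus strand, and each stretch is written 5′ to 3′ along the gene.
MYO1A: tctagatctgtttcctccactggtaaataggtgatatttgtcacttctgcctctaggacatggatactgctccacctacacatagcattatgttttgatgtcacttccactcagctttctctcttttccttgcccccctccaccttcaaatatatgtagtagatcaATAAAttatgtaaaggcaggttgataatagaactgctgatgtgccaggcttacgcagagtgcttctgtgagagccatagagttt
ANPEP: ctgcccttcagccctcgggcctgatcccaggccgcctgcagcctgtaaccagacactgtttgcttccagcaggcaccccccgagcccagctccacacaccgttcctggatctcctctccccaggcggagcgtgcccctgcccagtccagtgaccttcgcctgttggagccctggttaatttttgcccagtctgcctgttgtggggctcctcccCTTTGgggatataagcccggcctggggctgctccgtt
FABP1: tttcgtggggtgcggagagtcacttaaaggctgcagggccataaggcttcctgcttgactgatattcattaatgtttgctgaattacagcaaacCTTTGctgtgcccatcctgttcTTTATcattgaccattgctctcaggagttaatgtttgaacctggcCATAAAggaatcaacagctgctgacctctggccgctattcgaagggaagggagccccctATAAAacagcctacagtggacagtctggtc

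FABP1 held 3 matches to TTTAT, 1 of them within a TTTATG read on the opposite strand, and 1 match to CAAAG. The 250 bases shown for MYO1A held 1 match to TTTAT and none to CAAAG, while those before its other listed start held 1 match to TTTAT and 2 to CAAAG. Those shown for ANPEP held none to TTTAT and 1 to CAAAG, and those before its other start held none to either. The table matched 7 of the 10 genes with 11 starts in all; CDX1, VIL1 and CDHR5 were not matched. TTTAT lay before 4 of these 11 starts, in 3 genes (FABP1, MYO1A and CDX2), against 32.7% of all 35116 stretches of that length. TTTATG lay before 1 of them, against 9.64%, and CAAAG before 5, against 42.1%. These matches describe letters only. The files give 1 value for each gene, so the start in use cannot be read from them.

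Among the transcription factors, none of the 3 members differed by more than 0.1 on the log2 scale. CDX1, a caudal-type homeobox factor of the intestine, was 5.91 FPKM with normal food and 5.97 FPKM with depleted food (log2 ratio 0.01). CDX2, its close relative and the main determinant of intestinal fate, was 5.14 and 4.92 FPKM (log2 ratio -0.05). The 2 factors were thus near one level, with CDX1 at 1.15 times CDX2 on the normal diet and 1.21 times on the depleted diet. HNF4A was far higher, at 43.0 and 45.0 FPKM (log2 ratio 0.06), which is 8.36 times CDX2 on the normal diet and 9.14 times on the depleted diet.

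HNF4A has a start that is active in adult liver and one further upstream, and intestinal epithelium uses both. The files give 1 value for the gene. Its relative HNF4G, of which the intestine also holds much, was 21.7 and 17.6 FPKM (log2 ratio -0.28), so that HNF4A stood at 1.98 times HNF4G on the normal diet and 2.55 times on the depleted diet.

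The actin core and its membrane link were represented by VIL1, EZR and MYO1A, and only the last was past the smaller size. VIL1 encodes villin, which bundles actin filaments in microvilli and can also sever them. It was 89.2 FPKM with normal food and 90.6 FPKM with depleted food (log2 ratio 0.02). EZR encodes ezrin, which ties the actin bundle to the membrane, and was 224 and 212 FPKM (log2 ratio -0.08). The last part of VIL1 overlaps USP37 on the opposite strand in GENCODE release 29, at 7.14 and 7.74 FPKM, and the strand setting of the counting is not stated. EZR ranked 288th among all genes on the normal diet and 296th on the depleted diet.

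MYO1A encodes the myosin that bridges the actin core and the membrane along the side of the microvillus. It was 3.27 FPKM with normal food and 2.16 FPKM with depleted food, so the normal diet was 1.51 times as high. The log2 ratio was -0.43, and -0.60 without the added 1 FPKM. About 83 and 53 fragments lay behind these values if the shorter of its transcripts was the one counted, by an estimate of what 1 fragment is worth. Counting alone then gives the latter log2 ratio a standard error of 0.25. Of the 2953 genes with a mean from 1 to 5 FPKM, 7.72% had a log2 ratio as low as MYO1A or lower. The last bases of MYO1A overlap TAC3 on the same strand in GENCODE release 29, and TAC3 was at 0.799 and 1.04 FPKM.

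The 2 tip-link cadherins stood apart in level. CDHR5, also known as mucin-like protocadherin, was 19.6 FPKM with normal food and 17.0 FPKM with depleted food (log2 ratio -0.20). Its partner CDHR2, with which it forms the links between neighbouring microvilli, was 3.65 and 3.68 FPKM (log2 ratio 0.0088). The end of CDHR2 also overlaps a gene on the opposite strand, GPRIN1, at 2.16 and 1.52 FPKM. CDHR5 was thus 5.39 times CDHR2 on the normal diet and 4.62 times on the depleted diet. The ratio of CDHR5 was the third lowest of the 10, and 15.2% of the 5141 genes with a mean from 5 to 20 FPKM had one as low or lower. Counting alone gives a standard error of 0.10 to 0.12 on the log2 scale for CDHR5, depending on which of its transcripts was counted.

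Of the 2 genes of absorptive function, one was nearly equal in the libraries and the other lower on the depleted diet. FABP1, the liver-type protein that carries fatty acids inside enterocytes and hepatocytes, was 9.15 FPKM with normal food and 9.14 FPKM with depleted food. Between 35 and 118 fragments lay behind each value, depending on its transcript, which gives its log2 ratio a standard error from counting of 0.19 to 0.34. ANPEP encodes aminopeptidase N, also called CD13, which trims amino acids from peptides at the brush border. It was 5.08 FPKM with normal food and 3.68 FPKM with depleted food, so the normal diet was 1.38 times as high. The log2 ratio was -0.38, or -0.47 with a standard error from counting of 0.20 without the added 1 FPKM, on about 131 and 92 fragments. Among the genes with a mean from 1 to 5 FPKM, 10.2% were as low or lower.

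Differences of this size were common at these levels. Between 1 and 5 FPKM, 27.1% of genes differed by at least the smaller size, 13.5% in each direction, and the central 90% of log2 ratios ran from -0.53 to 0.54. MYO1A and ANPEP lay inside that range. With 5 FPKM added in place of 1 their log2 ratios were -0.21 and -0.22, short of the smaller size. ANPEP averaged 4.38 FPKM, close to the upper edge of that band. Between 5 and 20 FPKM, 13.3% were past the smaller size and the central 90% ran from -0.36 to 0.36. ANPEP at -0.38 would lie just outside that second range. Between 20 and 100 FPKM, where HNF4A and VIL1 lay, 6.30% were past the smaller size and the central 90% ran from -0.29 to 0.26. Above 100 FPKM, where EZR lay, it ran from -0.27 to 0.18.

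**Figure D2:**
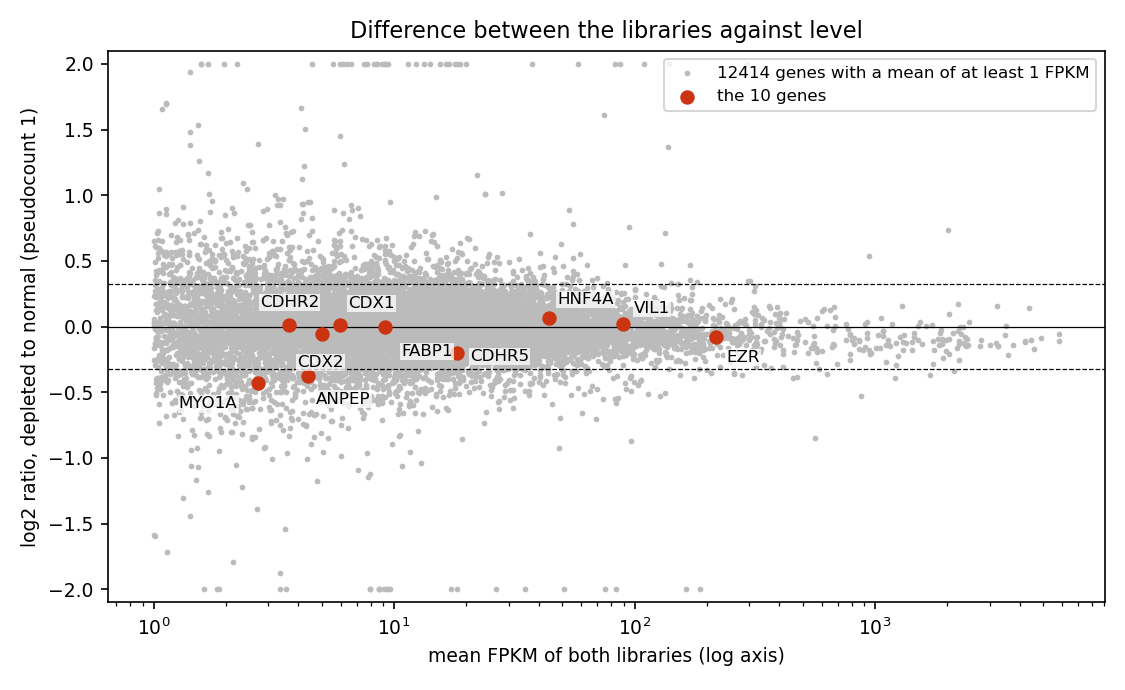
Log2 ratio of depleted to normal diet against the mean FPKM of both libraries (log axis) for 12414 genes (grey) and the 10 genes (red), with more extreme ratios drawn at the upper and lower edge; dashed lines mark the smaller size, 0.32 either way. MYO1A at -0.43 and ANPEP at -0.38 are past the lower dashed line among many grey points of the same level, and the other 8 lie between the lines.

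The structural genes of the wider brush border were present in both libraries. The list of the microvillus actin core and its membrane linkers held 27 genes, of which 26 were measured. The depleted diet was higher in 11 and lower in 15 of these, against 49.4% higher and 50.6% lower among all genes. Their median log2 ratio was -0.05, and none was past the smaller size. Few genes were past it at the levels where most of these lay, 6.30% from 20 to 100 FPKM and 5.34% above 100 FPKM. Among all genes 14.1% were past it. LASP1, an actin-binding adaptor, was the most abundant at 194 and 199 FPKM. SLC9A3R1, the scaffold NHERF1 that ezrin binds, was 125 and 128 FPKM.

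The other 2 proteins of the ezrin family were both higher on the depleted diet by less than the smaller size. MSN, moesin, was 111 FPKM with normal food and 130 FPKM with depleted food (log2 ratio 0.23), and RDX, radixin, was 13.2 and 14.2 FPKM (log2 ratio 0.10). EZR was 2.01 times MSN on the normal diet and 1.62 times on the depleted diet. STK10, a kinase that phosphorylates ezrin-family proteins, had the highest ratio of the list, at 6.33 and 7.83 FPKM (log2 ratio 0.27).

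MYO1D, another class I myosin of the microvillus, had the lowest ratio of the list among genes averaging 5 FPKM or more. It was 53.6 FPKM with normal food and 43.5 FPKM with depleted food (log2 ratio -0.30). MYO1D was 16.4 times MYO1A on the normal diet and 20.1 times on the depleted diet, so that MYO1A was the far lower of these class I myosins in both libraries.

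The complex that anchors CDHR2 and CDHR5 inside the microvillus tip was measured in all 4 listed genes. USH1C, its scaffold harmonin, was 104 FPKM with normal food and 105 FPKM with depleted food (log2 ratio 0.01). MYO7B, the myosin that carries the complex to the tip, was 15.8 and 13.4 FPKM (log2 ratio -0.21), and ANKS4B, an adaptor, was 11.4 and 10.7 FPKM (log2 ratio -0.07). Of the 4 genes 2 were higher and 2 lower (median -0.03), none past the smaller size, against 14.1% of all genes. Of 13 genes of apical traffic and polarity, 3 were higher and 10 lower (median -0.11), where 50.6% of all genes were lower. None of the 13 was past the smaller size, against 14.1% of all genes. PRKCZ, an atypical protein kinase C, had the highest ratio (0.21), and PARD3, a polarity scaffold, the lowest (-0.29). CDC42, a small GTPase of polarity, was the most abundant at 161 and 149 FPKM.

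**Figure D3:**
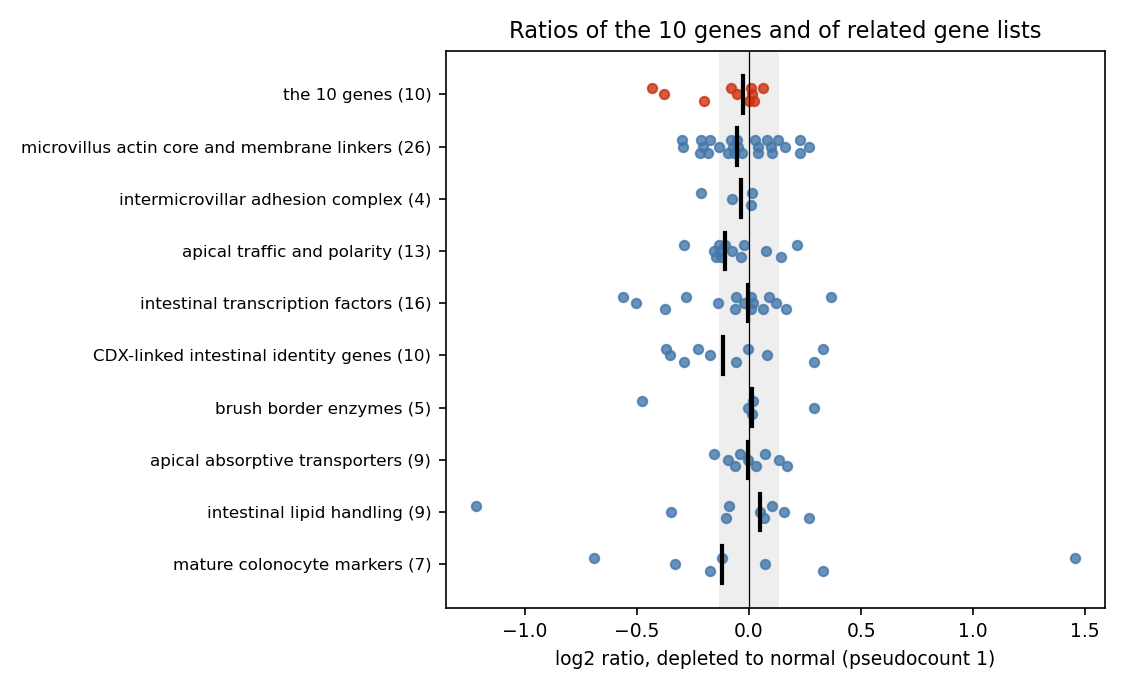
Log2 ratio of depleted to normal diet for each measured gene, in the 10 genes (red) and in 9 related lists (blue), with the number of genes in brackets, a black bar at each median and the grey band spanning the quartiles of all 12414 genes. The medians lie between -0.12 and 0.05, and 2 genes lie beyond 2-fold, GUCA2A at 1.45 and APOBEC1 at -1.22.

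Of 22 other transcription factors of intestinal epithelium 16 were measured, 8 higher and 8 lower, with a median of -0.0057. By at least the smaller size, 1 was higher and 3 were lower, against 14.1% of all genes in either direction and 7.15% lower. HES1, a Notch target that favours absorptive over secretory fate, was the higher one at 36.3 and 47.1 FPKM (log2 ratio 0.37). ELF3, an epithelial ETS factor, had the lowest ratio among genes averaging 5 FPKM or more at 158 and 111 FPKM (log2 ratio -0.51). NR1I2, a xenobiotic receptor named after its values were seen, was also lower at 2.55 and 1.40 FPKM (log2 ratio -0.56). GATA6 was 12.9 and 13.0 FPKM, and GATA4 was listed at 0 in both libraries.

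Intestinal identity genes that are linked to CDX factors were measured in 10 of 13 cases. Of these 7 were lower and 3 higher, with a median of -0.12, which became -0.20 over the genes averaging 5 FPKM or more and -0.06 over all 13. By at least the smaller size, 2 were lower and 1 higher, against 14.1% of all genes in either direction and 7.15% lower. CDH17, an intestinal cadherin and a direct CDX2 target, was 10.5 FPKM with normal food and 7.93 FPKM with depleted food (log2 ratio -0.37). MUC13, a membrane mucin, was 293 and 229 FPKM (log2 ratio -0.35), named after its value was seen. LGALS4, an intestinal galectin, was the most abundant at 1346 and 1150 FPKM (log2 ratio -0.23). The higher one was MUC2, the goblet cell mucin, at 19.9 and 25.3 FPKM (log2 ratio 0.33). GUCY2C, the guanylin receptor, was at 0.524 and 0.290 FPKM.

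The enzymes of the brush border were mostly at low values. Of 18 listed, 5 were measured, 3 of them higher and 2 lower on the depleted diet (median 0.01). DPP4, which cleaves dipeptides from peptides, was the highest by far at 75.2 and 76.2 FPKM (log2 ratio 0.02). ANPEP was at 0.0676 times DPP4 on the normal diet and 0.0482 times on the depleted diet. DPEP1, a dipeptidase, was 8.70 and 5.96 FPKM (log2 ratio -0.48). It was the 1 of the 5 measured enzymes past the smaller size, against 14.1% of all genes. SI, sucrase-isomaltase, was 1.44 and 1.43 FPKM, ALPI, intestinal alkaline phosphatase, was at 0.124 FPKM on the normal diet and listed at 0 on the depleted diet, and LCT, lactase, was listed at 0 in both.

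Apical transporters were measured in 9 of 20 genes, 4 higher and 5 lower, with a median of -0.0034. None was past the smaller size, against 14.1% of all genes. SLC1A1, a glutamate carrier, was the most abundant at 39.0 and 39.8 FPKM. SLC16A1, which carries butyrate and lactate, had the highest ratio (0.17), and SLC3A1, the heavy chain of a carrier of cystine and basic amino acids, the lowest (-0.16). Lipid handling genes were measured in 9 of 17, 5 higher and 4 lower, with a median of 0.05. FABP2, the intestinal-type relative of FABP1, was at 0.248 and 0.323 FPKM, so FABP1 was 36.8 times FABP2 on the normal diet and 28.3 times on the depleted diet. FABP5, the epidermal-type relative, was 7.53 times FABP1 on the normal diet and 8.11 times on the depleted diet. ACSL5, which activates fatty acids, was the most abundant at 123 and 137 FPKM (log2 ratio 0.16). Among the lipid genes averaging 5 FPKM or more, ACSL5 had the highest ratio and FABP6, the bile acid binding relative, the lowest, at 11.9 and 9.13 FPKM (-0.35). APOBEC1, the editor of apolipoprotein B messenger RNA, was lower by more than 2-fold at 3.66 and 1.00 FPKM (log2 ratio -1.22), and was named after its value was seen.

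Over the 9 related lists, 95 of 139 genes were measured. The depleted diet was higher in 40 and lower in 55, against 49.4% higher and 50.6% lower among all genes. By at least the smaller size, 4 were higher and 10 lower. Both directions together made 14.7%, against 14.1% of all genes. Lower by that much were 7.15% of all genes. The median log2 ratio of the 95 was -0.05. The 4 higher ones were GUCA2A, HES1, MUC2 and CA2, the last of which was named after its value was seen. The guanylin precursor GUCA2A and APOBEC1 were the 2 past 2-fold, as were 0.894% of all genes. GUCA2A was low, at 2.72 FPKM with normal food and 9.20 FPKM with depleted food. Counting error was not estimated for either gene.

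The colonic label was checked against markers. Markers of epithelium were high in both libraries, with CDH1, E-cadherin, the lowest of the 5 at 185 and 178 FPKM. EPCAM was 472 and 444 FPKM. KRT20, a keratin of differentiated colon epithelium, was 610 and 540 FPKM (log2 ratio -0.18). Of 13 markers of mature colonocytes, 7 were measured, 3 higher and 4 lower (median -0.12), and CA1, CA4 and MS4A12 were listed at 0 in both libraries. By at least the smaller size 2 were higher and 2 lower, against 14.1% of all genes in either direction. GUCA2A (log2 ratio 1.45) and CA2 (0.33) were the higher ones, and GUCA2B, a guanylin relative (-0.33), and CEACAM7, a surface protein of colon epithelium (-0.69), the lower ones, of which CA2 and CEACAM7 were named after their values were seen. The 10 genes were thus measured beside abundant epithelial keratins, while several defining genes of the mature colonocyte were at or near 0. Without KRT20 the highest of the 13 was below 10 FPKM in both libraries.

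**Figure D4:**
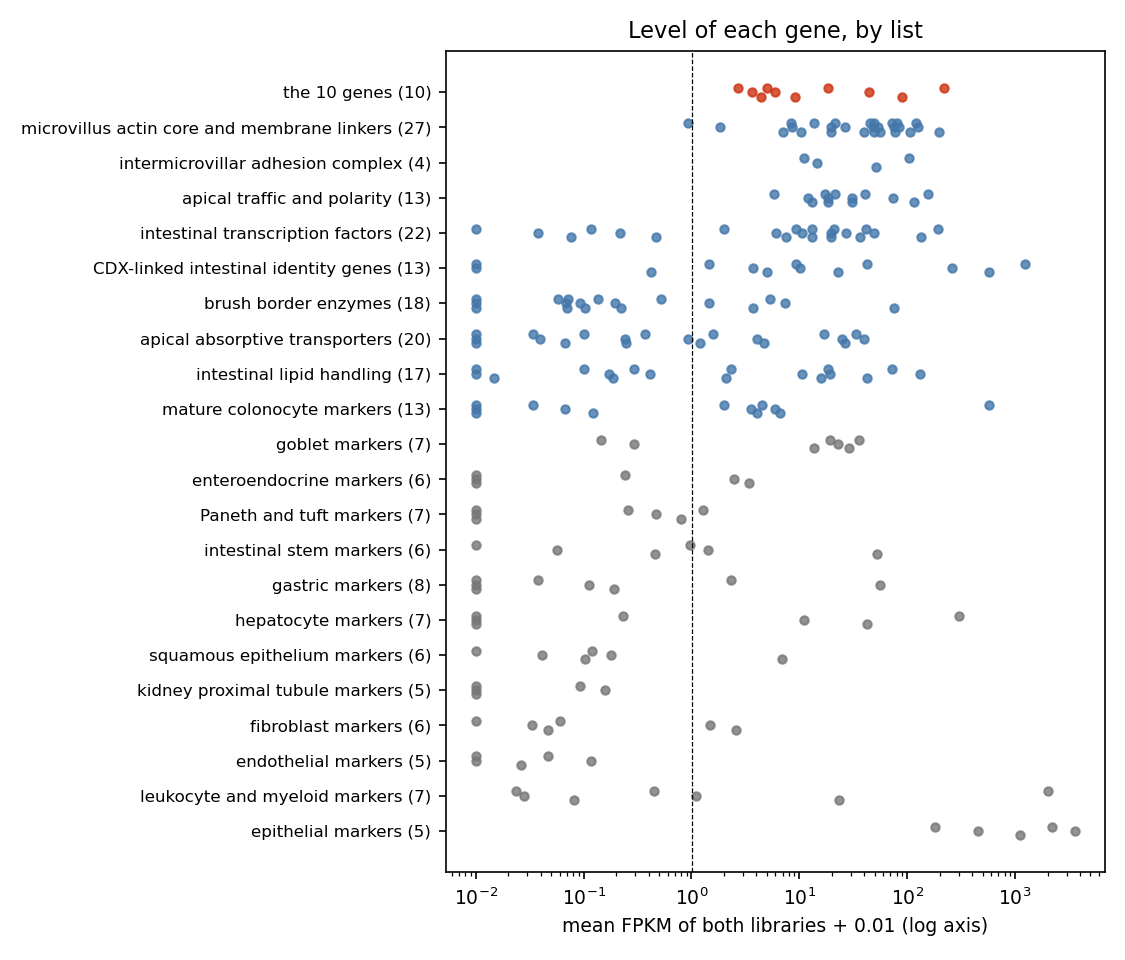
Mean FPKM of both libraries plus 0.01 (log axis) for each gene, by list, with the number of genes in brackets (red, the 10 genes; blue, related lists; grey, cell type markers) and a dashed line at 1 FPKM. The 10 genes and the structural lists lie above 1 FPKM almost throughout, while 13 of 18 brush border enzymes lie below it.

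Some markers of other cell types were higher in the library where MYO1A and ANPEP were lower. Of 7 goblet cell markers 5 were measured, 4 of them higher by at least the smaller size on the depleted diet, and the summed level was 106 FPKM with normal food and 134 FPKM with depleted food. Among all genes 6.79% were higher by that much at a mean from 5 to 20 FPKM and 2.73% from 20 to 100 FPKM, where these 5 markers lay. CLCA1 and ZG16 of that list were under 0.4 FPKM in both. The part of the goblet markers in the differences of MYO1A and ANPEP was not tested. In bulk tumours, fewer cells of a type and less RNA per cell cannot be told apart. ANPEP is also made by myeloid cells. Of the 7 markers of leukocytes and myeloid cells, which summed to 2134 and 1995 FPKM, LYZ made up almost all, at 2107 and 1972 FPKM. Bulk values do not tell which cells made the LYZ, so this sum is not a measure of leukocytes. CD68 was 25.6 FPKM with normal food and 20.8 FPKM with depleted food (log2 ratio -0.29). CD14 was higher on the depleted diet by more than the smaller size, at 0.709 and 1.49 FPKM (log2 ratio 0.55), and ITGAM was 0.392 and 0.494 FPKM. PTPRC, CSF1R and CD33 were under 0.15 FPKM on the normal diet and listed at 0 on the depleted diet. The part of these cells in the difference of ANPEP was not tested. Fibroblast markers summed to 4.42 and 3.86 FPKM, and endothelial markers to 0.211 and 0.108 FPKM. Enteroendocrine markers summed to 5.63 and 6.63 FPKM, Paneth and tuft cell markers to 2.83 and 2.65 FPKM, intestinal stem cell markers to 54.7 and 56.5 FPKM, nearly all RNF43, squamous markers to 8.07 and 6.45 FPKM, and kidney tubule markers to 0.205 and 0.257 FPKM.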

How the data were processed

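RNA of 2 tumour libraries, 1 for each diet, was made into libraries with a kit for stranded mRNA, as the labels' protocols state. The authors deposited FPKM for each gene symbol, per the file headers. Per the submitters' processing notes the build was hg19 and the tools included Cuffdiff 2.2.1, TopHat2 2.1.1, SAMtools 0.1.18 and Bowtie2 2.2.8, with no role given. Not given in the sources used here are the annotation, the strand setting and any removal of mouse reads, so reads of mouse stroma, overlapping genes and antisense partners could add to a value.

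Ratios, counts and medians were computed in Python 3.11.15 with pandas 2.3.3 from FPKM, with a pseudocount of 1 FPKM and a mean of at least 1 FPKM. No test was run, since each diet has 1 library. The ratio and fold steps were tested on simulated data with counting error only and planted differences of more than 2-fold. Every simulated gene had the same number of fragments per FPKM. That check does not cover the smaller differences described here. Depth is an estimate. Among protein-coding genes with 1 transcript in GENCODE release 29, low values of FPKM times length in nt clustered at a median of 142 in the normal and 147 in the depleted library, from 92 and 108 genes between 100 and 200, a window set after the values were seen. This gives about 7.03e+06 and 6.81e+06 fragments. Standard errors quoted from it cover counting error only, and reads are not independent molecules.

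The members and gene lists were chosen with earlier results of these data known. Beside the 10 members, the text names, for each related list, the most abundant gene, the genes with the highest and lowest ratio among genes averaging 5 FPKM or more, and 15 genes listed by name; other names are said to be chosen after their values were seen, or are markers given by level. Some genes counted in the lists are not reported here by name. Alternatives covered the pseudocount, the filter, the fold and the scaling.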

Additional observations from a re-analysis of the deposited data

How the results depend on the processing

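The count of members with a log2 ratio past 0.32 was 2. It was 0 with a pseudocount of 5 FPKM (4.94% of all genes) and 0 at 1.5-fold (3.17%). At a mean of at least 5 FPKM it was also 0 (10.0% of all genes at that level). There 7 members were left, and MYO1A and ANPEP were not among them. A larger pseudocount, a stricter filter and a higher fold let fewer genes pass by construction. The count stayed at 2 with a pseudocount of 0.1 FPKM (18.6% of all genes), with no filter (9.95%) and under both scalings (14.6% and 14.1%). No member was past 2-fold in any alternative, where 0.443% to 1.75% of all genes were, or past 3-fold, where 0.580% were. Scaling to a common sum of FPKM moved the median of all genes by 0.04, and setting the median ratio of genes at 10 FPKM or more to 0 moved it by 0.0097. Both moved FABP1 to the higher side, the 1 member whose sign changed in 57 values. The median of the members moved from -0.03 to 0.01 with a common sum of FPKM. The tolerances used for member values (the spread of ratios at that level) and list medians (0.1) were as large as most of the values, so that staying within them says little. No paired analysis was possible because there is a single library for each diet, which also leaves no replicate to omit. Counting error limits MYO1A, ANPEP, CDHR2, CDX1, CDX2 and FABP1 most, with about 147 fragments or fewer in each library.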

Other observations

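Some genes that are known from the liver and are targets of HNF factors there were also present in these tumour libraries, beside HNF4A at 43.0 and 45.0 FPKM. SERPINA1, which encodes alpha-1-antitrypsin, was 266 FPKM with normal food and 339 FPKM with depleted food (log2 ratio 0.35). APOH, which encodes a plasma glycoprotein, was 48.8 and 36.5 FPKM (log2 ratio -0.41), and TTR, transthyretin, 11.9 and 10.0 FPKM (log2 ratio -0.23). The 3 genes did not share a direction, and ALB, TF and APOA2 of the same list were listed at 0 in both libraries. MUC5AC, a mucin of the stomach surface, was 45.4 FPKM with normal food and 65.7 FPKM with depleted food (log2 ratio 0.52). TFF2, the other measured gene of the 8 stomach markers, went the other way at 3.02 and 1.57 FPKM (log2 ratio -0.65), and the stomach genes GKN1 and GKN2 were listed at 0 in both.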
